A study of Mus musculus with 36 samples.

Results

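The immediate early genes Fos, Fosb, Jun, Junb, Jund, Egr1, Egr2, Egr3, Ier2 and Dusp1 were described through their DNase hypersensitive sites (DHS), the stretches of open chromatin that the enzyme DNase I cuts. A DHS was taken for a gene when it overlapped the body of that gene, extended by 10000 bp on each side, in the GENCODE vM21 annotation. This gave 43 of the 52788 DHS of the table: 3 for Fos, 7 for Fosb, 2 for Jun, 7 for Junb, 3 for Jund, 5 for Egr1, 2 for Egr2, 3 for Egr3, 5 for Ier2 and 6 for Dusp1. The rule uses gene names and positions and no measured value, but the genes were chosen with earlier results of these data known.

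The cells were B3, a mouse pre-B cell line. The Ikaros line carries an MSCV retroviral vector for haemagglutinin-tagged wild type Ikaros, a transcription factor of lymphocytes, fused to the hormone-binding domain ERt2, with an IRES and GFP. The Control line carries the vector without Ikaros. Both lines were labelled with 4-hydroxytamoxifen (4-OHT), which moves ERt2 fusion proteins into the nucleus, at 0.5 µM, and were collected at 0, 2, 6, 12, 18 and 24 h, with 3 libraries in each of the 12 groups (replicates 4, 5 and 6, from batches 11, 12 and 13). Per the study's methods the 0 h cells received no 4-OHT and were obtained separately, so the absence of the drug, the separate collection and the time cannot be told apart in any comparison with 0 h. The methods also describe the batches as repeats of the whole time course. No untransduced or vehicle-treated cells at 2 to 24 h were analysed here. Values are log2 RPKM, that is, log2 of reads scaled to the width of the DHS and to the size of the library, after TMM scaling and the authors' noise correction; the depth of each library is unknown. Of the B lineage markers, 8 of 10 genes had a promoter DHS, with a median level of 5.20, against 2 of 6 T cell genes, 1 of 6 myeloid genes and 1 of 5 fibroblast or muscle genes.

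Immediate early genes are switched on within minutes of a stimulus, without the need for new protein synthesis, by factors that are already present in the cell. Serum response factor binds the CArG box and CREB binds the cyclic AMP response element (CRE), and both are activated by kinase cascades downstream of growth factors, antigen receptors or stress. Their promoters are commonly open before any stimulus. The products are themselves mostly transcription factors: Fos and Jun proteins pair to form AP-1, and Egr proteins are zinc finger factors. The question put to the DHS was whether the drug or the handling of the cells went with more open chromatin in either line.

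A total of 15 of the 43 DHS came within 1000 bp of an annotated start of their own gene and were called promoter DHS of that gene. Another 6 were promoters of neighbouring genes (Gm26802, Rnaseh2a, Ado, Gm26664, Ergic1 and AC122252.1), and the remaining 22 were intergenic (15), exonic (4) or intronic (3). Egr3 had no promoter DHS: its nearest lay 2258 bp upstream of its start. Distances are from the middle of the DHS to the nearest GENCODE start of the gene, and coordinates are those of mm10 as deposited.

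The response elements of these promoters are shown because they are the known handles by which a stimulus reaches these genes. The stretches below are from GRCm38, the assembly that is also called mm10, on the strand of the gene, with the CRE (TGACGTCA) or the CArG box in capitals. Those of Jund, Ier2 and Dusp1 hold the CRE, and those of Fos, Fosb and Egr2 a CArG box.
Jund, chr8:70698690-70698789, plus strand: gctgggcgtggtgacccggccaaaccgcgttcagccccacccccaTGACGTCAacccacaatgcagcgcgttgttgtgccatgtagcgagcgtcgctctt
Ier2, chr8:84662845-84662944, minus strand: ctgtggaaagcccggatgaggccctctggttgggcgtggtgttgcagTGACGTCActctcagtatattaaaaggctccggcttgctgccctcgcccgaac
Dusp1, chr17:26508563-26508662, minus strand: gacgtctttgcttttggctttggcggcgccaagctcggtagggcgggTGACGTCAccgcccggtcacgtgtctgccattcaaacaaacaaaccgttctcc
Fos, chr12:85473536-85473635, plus strand: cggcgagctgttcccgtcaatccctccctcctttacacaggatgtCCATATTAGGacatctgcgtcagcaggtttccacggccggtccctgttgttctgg
Fosb, chr7:19310263-19310362, minus strand: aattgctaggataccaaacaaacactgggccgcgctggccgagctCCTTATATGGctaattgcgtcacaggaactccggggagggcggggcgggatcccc
Egr2, chr10:67537449-67537548, plus strand: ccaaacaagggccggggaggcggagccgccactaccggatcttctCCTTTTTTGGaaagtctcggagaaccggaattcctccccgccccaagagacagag
Egr2, chr10:67537752-67537851, plus strand: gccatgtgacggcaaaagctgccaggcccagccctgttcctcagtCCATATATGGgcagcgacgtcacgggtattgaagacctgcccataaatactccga

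In windows of 500 bp around the middle of each DHS, searched on both strands, 5 of the 15 promoter DHS held a CArG box (33.3%), against 1.90% of all 13657 promoter DHS. These were promoter DHS of Fos, Fosb, Egr1 (the one 122 bp upstream) and Egr2 and the DHS that Dusp1 shares with Ergic1. The window of the other Egr1 promoter DHS, 154 bp downstream, held no CArG box. The CRE was in 3 of 15 (20.0%), against 3.46% of all promoter DHS. None of the 15 held the AP-1 site TGAGTCA or TGACTCA, the Egr site GCGTGGGCG or the Ets site ACCGGAAGT, which 6.03%, 1.43% and 2.34% of all promoter DHS held. The Ikaros core TGGGAA was in 6 of 15, against 33.9% of all promoter DHS, and in 24 of all 43 DHS (55.8%) against 37.9% of the table. A match describes the letters of a window and not a bound factor.

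The 43 sites had been called as DHS by the authors, so that they were open was given by their choice. Their levels are means over the 36 libraries. The mean levels of the 43 DHS ran from 3.63 to 6.31, and 40 of 43 lay above the median of all DHS, which was 3.95. The median of the 15 promoter DHS was 5.25, against 4.57 for all promoter DHS. For each gene the promoter DHS with the highest mean is described first. Ordered by mean over the 36 libraries (± SD), these were Ier2 (6.31 ± 0.28), Jund (6.26 ± 0.29), Jun (5.71 ± 0.30), Junb (5.66 ± 0.28), Egr1 (5.54 ± 0.39), Fosb (5.11 ± 0.25), Egr2 (5.11 ± 0.22), Dusp1 (5.09 ± 0.25) and Fos (4.39 ± 0.26). Ier2 and Jund, then Jun, Junb and Egr1, and then Fosb, Egr2 and Dusp1 differed among themselves by less than their SD. Fos lay below all of them, at the 72.3 percentile of all DHS against 91.2 or higher for the others. RPKM divides by width, and the Ier2 and Jund DHS that lead the order are only 171 and 195 bp wide, against a median of 535 bp for the 15.

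**Figure D1:**
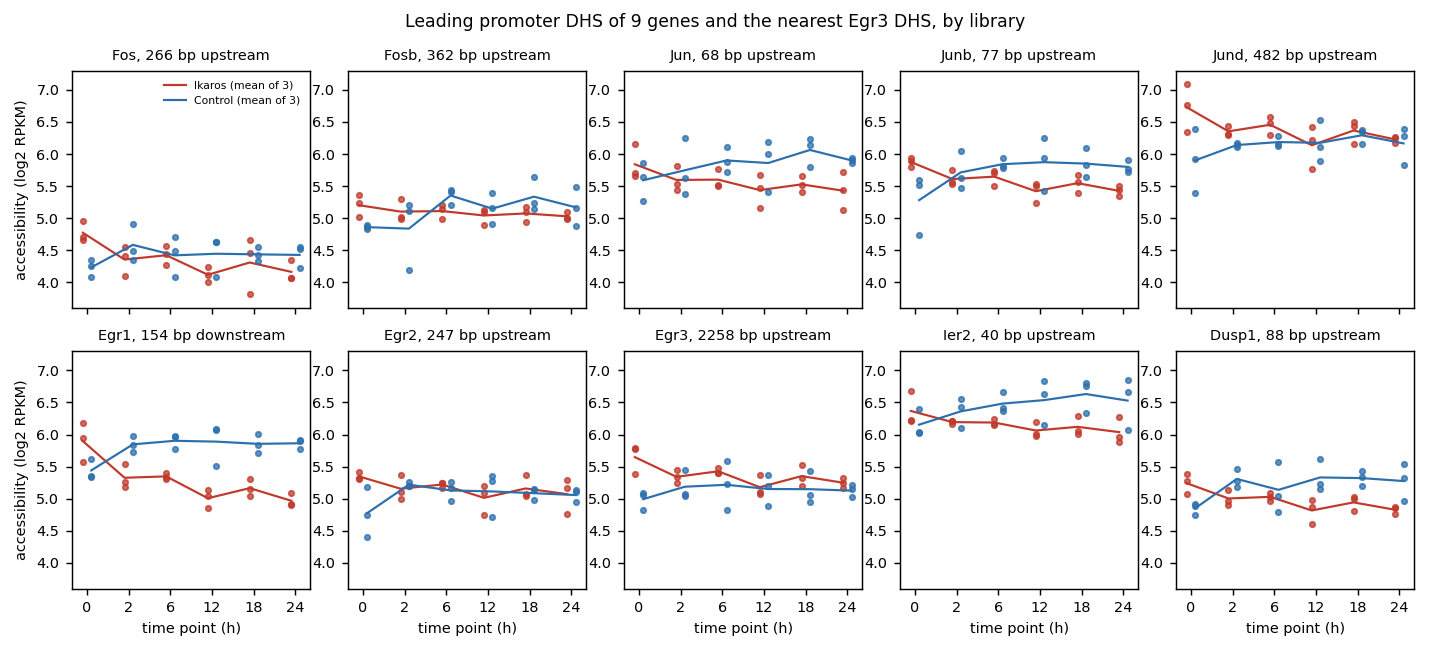
Accessibility (log2 RPKM) of the leading promoter DHS of 9 genes and of the nearest Egr3 DHS at each time point, with 1 point per library and a line through the mean of 3 libraries (Ikaros red, Control blue). The Egr1 lines part after 0 h, with Ikaros between 4.85 and 5.54 and Control between 5.50 and 6.09 from 2 to 24 h, while Fos is the lowest panel and Ier2 and Jund the highest.

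To ask whether the drug or the handling opened these sites, the mean of the 5 treated times was compared with 0 h in each line. In Control no member passed the threshold, where 0.411% of all DHS did. An unadjusted limma p under 0.05 was found at 14 of 43. The share of all DHS under that p is not given, here or for the unadjusted counts below. Such counts therefore do not set the members apart from other DHS. All 15 promoter DHS lay above 0 h in Control, as did 10013 of all 13657 promoter DHS. The median difference of the 15 was 0.35 on the log2 scale, with a range of 0.13 to 0.53, and that of all promoter DHS was 0.18. Nearest to the threshold were Jund at 106 bp upstream (0.49 ± 0.12 SE, adjusted p = 0.0555), the Junb promoter (0.53 ± 0.14, adjusted p = 0.0711) and Egr1 at 154 bp downstream (0.43 ± 0.12, adjusted p = 0.0744). This count moved with single libraries. It was 5 without Control 0 h replicate 4 or Control 12 h replicate 4, 2 without Control 0 h replicate 5 or Control 2 h replicate 5, and 1 without Control 24 h replicate 5. The adjusted p-values are limma's, with the Benjamini-Hochberg correction made over the whole table, and a difference is called where this p is under 0.05. In bulk cells, a lower value from fewer cells with the site open cannot be told apart from a site that is cut less in each cell.

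In the Ikaros line 6 of 43 DHS passed the same test, against 17.4% of all DHS: 4 fell and 2 rose. Of all DHS 7.18% fell, and of all promoter DHS 16.4%. Those that fell were promoter DHS of Fos, Egr1 (154 bp downstream) and Jund (106 bp upstream) and a DHS upstream of Junb. Those that rose were not promoters: a DHS in the Prdx2 gene beside Junb, and one 24381 bp upstream of the nearest Dusp1 start. The 15 promoter DHS all lay below 0 h, as did 10140 of all 13657 promoter DHS. The median was -0.32 for the 15, against -0.21 for all promoter DHS. With trends against level, GC content and width taken out of each library, the median of the 15 was -0.07 and that of all promoter DHS -0.02. Only 3 of 43 DHS then passed, all lower. They were Egr1 154 bp downstream, the DHS 2424 bp upstream of Junb and that 1126 bp upstream of Jun. The Jun DHS was not among the 6, and the Fos and Jund promoters no longer passed. Without Ikaros 0 h replicate 6 the count was also 3.

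Opposite signs in the lines made their difference the comparison with the most calls. The change from 0 h to the treated mean was lower in Ikaros than in Control at 14 of 43 DHS, with no call the other way. These included 11 of the 15 promoter DHS. Of all DHS 14.3% were called and 7.89% in this direction, and of all promoter DHS 23.7% in this direction. The median difference was -0.71 for the 15 and -0.38 for all promoter DHS. With the trends against level, GC content and width removed, none of the 43 passed, and these medians were -0.18 and -0.02. Leaving out Control 0 h replicate 6 left 3 calls and leaving out Ikaros 0 h replicate 4 left 8. At the 9 leading promoters, Control 0 h replicate 6 lay on average 0.46 below the mean of all libraries, and was below it at 9 of 9. The spread of values within a library moved with the same groups. The SD over all DHS was 0.854 to 1.05 in Ikaros 0 h and 0.612 to 0.761 in treated Ikaros libraries, and 0.751 to 0.770 in Control 0 h and 0.836 to 1.07 in treated Control libraries. Its part in the differences was not tested.

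**Figure D2:**
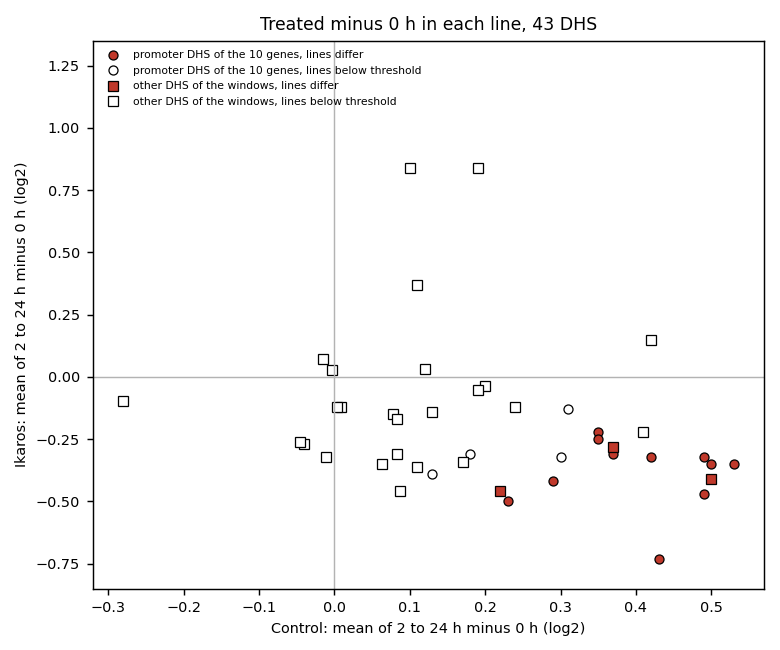
Change from 0 h to the mean of the treated times in Control (x axis) and in Ikaros (y axis), both in log2, for the 43 DHS. Circles are promoter DHS of the 10 genes and squares the other DHS, filled where the difference between the lines passed the threshold; all 15 circles lie to the right of 0 and below 0.

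Fos, the partner of Jun proteins in AP-1, had its promoter DHS 266 bp upstream of the start (chromosome 12, 85473324 to 85473925). It stood at 4.95, 4.66 and 4.71 in Ikaros at 0 h and at 4.35, 4.26 and 4.08 in Control at 0 h. All 3 Ikaros libraries were higher, but the difference of 0.54 ± 0.20 (SE) missed the threshold (adjusted p = 0.0750). The share of all DHS without overlap between the lines is not given, here or for the genes below. Such separations therefore do not set the members apart from other DHS. From 2 to 24 h the Ikaros libraries ran from 3.81 through a median of 4.27 to 4.66 and the Control libraries from 4.08 through 4.49 to 4.91. The treated mean fell by 0.50 in Ikaros (SE 0.16, adjusted p = 0.0282) and differed from 0 h by 0.23 ± 0.16 in Control (adjusted p = 0.455). The Ikaros call was lost without any one of the 3 Ikaros 0 h libraries. The change differed between the lines by -0.73 ± 0.22 (adjusted p = 0.0282), a call that was lost without Control 0 h replicate 6 or Ikaros 0 h replicate 4. The other Fos DHS, 5094 bp upstream and 12224 bp downstream, passed in no comparison.

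Fosb, a close relative of Fos, had a pair of promoter DHS. At the one 362 bp upstream (chromosome 7, 19310145 to 19310680), which holds the CArG box shown above, Ikaros stood at 5.01, 5.23 and 5.36 at 0 h and Control at 4.83, 4.86 and 4.89. These groups did not overlap, yet the difference of 0.34 ± 0.19 did not pass (adjusted p = 0.242), nor did any other comparison. Control replicate 5 at 2 h, at 4.19, was its lowest library. At the DHS 938 bp downstream of the nearest start, Ikaros at 0 h stood at 5.36, 5.40 and 5.49 and Control at 4.89, 5.01 and 4.27. Here the difference of 0.69 ± 0.20 passed (adjusted p = 0.0244), as did the difference between the lines in the change from 0 h (-0.69 ± 0.22, adjusted p = 0.0374). Leaving out Control 0 h replicate 6 or Ikaros 0 h replicate 5 or 6 ended both calls, and leaving out Ikaros 0 h replicate 4 ended the latter too. A DHS in an exon of Rtn2, the next gene, was lower in Ikaros at 18 h by -0.77 ± 0.19 (adjusted p = 0.0481). This call was lost with the replicate block, where its adjusted p was 0.0665, and without any one of the 6 libraries compared.

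Jun, which pairs with Fos proteins, had 1 promoter DHS 68 bp upstream of its start (chromosome 4, 95052004 to 95052577). It also overlapped the body of the antisense gene Junos. Its 0 h libraries overlapped, at 5.66, 5.71 and 6.15 in Ikaros and 5.86, 5.65 and 5.27 in Control. The treated libraries ran from 5.12 through 5.51 to 5.81 in Ikaros and from 5.37 through 5.91 to 6.25 in Control, and no comparison passed. The second DHS, 1126 bp upstream in an intron of Junos, stood at 5.59, 5.34 and 5.54 in Ikaros and 5.41, 4.81 and 4.98 in Control at 0 h. Its change from 0 h differed between the lines by -0.65 ± 0.21 (adjusted p = 0.0388). Leaving out Control 0 h replicate 5 or 6, or Ikaros 0 h replicate 4 or 6, ended this call.

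Junb, a Jun family member that often opposes Jun, had its promoter DHS 77 bp upstream of the start (chromosome 8, 84978577 to 84979013). At 0 h it stood at 5.89, 5.80 and 5.94 in Ikaros and at 5.51, 5.59 and 4.74 in Control, with no overlap. The difference was 0.60 ± 0.19 (adjusted p = 0.0339), lost without Control 0 h replicate 6 or without any one of the 3 Ikaros 0 h libraries. By 24 h the order was the other way round, with 5.50, 5.44 and 5.34 in Ikaros and 5.91, 5.72 and 5.77 in Control, and this difference did not pass (-0.37 ± 0.19, adjusted p = 0.355). The change from 0 h differed between the lines by -0.88 ± 0.20 (adjusted p = 0.00699), and that of the DHS 1304 bp upstream by -0.91 ± 0.24 (adjusted p = 0.0138). Both were lost without Control 0 h replicate 6.

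The DHS 2424 bp upstream of Junb was among the most accessible of the table, at the 99.3 percentile, and was lower in Ikaros at 6 and 24 h. Its 500 bp window held an AP-1 site besides the Ikaros core. The windows of Egr1 154 bp downstream and Jund 106 bp upstream, the other DHS with the most calls, held no Ikaros core. The Junb upstream DHS is shown whole (chr8:84981069-84981217, minus strand, in the direction of Junb), with its Ikaros core TGGGAA in capitals.
Junb upstream DHS: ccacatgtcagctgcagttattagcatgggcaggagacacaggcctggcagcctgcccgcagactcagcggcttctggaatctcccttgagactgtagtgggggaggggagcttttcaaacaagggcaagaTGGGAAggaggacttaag
At 6 h it stood at 5.52, 5.76 and 5.74 in Ikaros against 6.75, 6.63 and 6.59 in Control, and at 24 h at 5.55, 5.50 and 5.35 against 6.43, 6.01 and 6.45. The Ikaros libraries lay below all Control libraries at 2, 6, 12, 18 and 24 h, whereas at 0 h the lines overlapped, with 5.66, 6.11 and 6.40 in Ikaros and 6.31, 5.86 and 6.25 in Control. The separation was thin at 2 h, with the highest Ikaros library at 5.831 and the lowest Control library at 5.850. It was also thin at 12 h, at 5.715 and 5.726. The times share the authors' noise correction, and the share of all DHS separated in this way is not given. The differences were -0.98 ± 0.20 at 6 h (adjusted p = 0.0179) and -0.83 ± 0.20 at 24 h (adjusted p = 0.0322). Between them they were -0.66 at 12 h (adjusted p = 0.0856) and -0.76 at 18 h (adjusted p = 0.0633), and at 2 h the value was -0.60 (adjusted p = 0.227). The 6 h call was lost without any one of the 3 Ikaros libraries. The 24 h call was lost without any one of the 6 libraries compared except Control replicate 5. Within Ikaros the treated mean fell by 0.46 from 0 h (SE 0.15, adjusted p = 0.0396), a call that was lost when any of 7 single libraries was left out, and its change differed between the lines by -0.68 ± 0.22 (adjusted p = 0.0360), which was lost without Control or Ikaros 0 h replicate 5 or 6. A narrow DHS in an exon of Prdx2, 4312 bp downstream of the Junb start, went the other way: it stood at 5.04, 4.24 and 4.33 in Ikaros at 0 h and between 4.93 and 5.88 afterwards. It rose by 0.84 ± 0.23 (adjusted p = 0.0134), lost without Ikaros 0 h replicate 5 or 6. In Control it ran from 4.72 to 6.14 and differed from 0 h by 0.10 ± 0.23.

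Jund, the Jun family member found in most resting cells, had a pair of promoter DHS 19 bp apart on chromosome 8, named here by the nearest GENCODE start; they lie 728 and 1104 bp downstream of the RefSeq start. The one 106 bp upstream of a start (70698583 to 70699103) holds the CRE shown above and had the largest 0 h difference of the 43. It stood at 6.31, 6.27 and 6.37 in Ikaros and at 5.29, 5.60 and 5.06 in Control at 0 h. The difference of 1.00 ± 0.16, or 2.00-fold, passed with an adjusted p of 0.000296 and kept that call without any single library. It was 0.73 with quantile normalization (adjusted p = 0.000454) and 0.24 with the trends against level, GC content and width removed (adjusted p = 0.164). At 2 h the groups overlapped, with 6.00, 5.95 and 5.79 in Ikaros and 5.93, 5.76 and 5.65 in Control, and no later difference passed. From 0 h to the treated mean it fell by 0.47 in Ikaros (SE 0.12, adjusted p = 0.00906) and the lines differed by -0.96 ± 0.17 (adjusted p = 0.00185). It was 1 of 2 members with an interaction of line and time (adjusted p = 0.0362, and 0.0593 with the replicate block), where 1.10% of all DHS passed. That interaction was lost when any of 12 single libraries was left out. The neighbouring DHS 482 bp upstream (70698369 to 70698564) stood at 7.09, 6.34 and 6.76 in Ikaros and 5.93, 6.39 and 5.39 in Control at 0 h. Its groups overlapped, and its difference of 0.83 ± 0.20 (adjusted p = 0.00804) was lost without Control 0 h replicate 6 or Ikaros 0 h replicate 4. Its change from 0 h differed between the lines by -0.71 ± 0.22 (adjusted p = 0.0308), lost without replicate 4 or 6 of either line at 0 h.

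Egr1, the zinc finger factor induced by mitogens and antigen receptors, had the most calls, 8 of 16 comparisons at 1 DHS. This DHS (chromosome 18, 34859681 to 34860274) lies 154 bp downstream of the upstream start of GENCODE and 1230 bp upstream of the start used by RefSeq. The Ikaros libraries stood at 5.94, 5.56 and 6.18 at 0 h, then 5.54, 5.26 and 5.18 at 2 h and 5.34, 5.31 and 5.39 at 6 h. Later values in this line were 4.85, 5.04 and 5.14 for 12 h, 5.31, 5.04 and 5.15 for 18 h and 5.09, 4.91 and 4.90 for 24 h. The Control libraries stood at 5.63, 5.36 and 5.34 at 0 h, then 5.98, 5.72 and 5.84 at 2 h and 5.97, 5.77 and 5.97 at 6 h. Their later values were 5.50, 6.08 and 6.09 for 12 h, 5.72, 5.84 and 6.00 for 18 h and 5.91, 5.91 and 5.78 for 24 h. At 0 h the lines overlapped. From 2 h onwards all 3 Ikaros libraries lay below all 3 Control libraries at every time. The share of all DHS separated in this way is not given. The times also share the authors' noise correction, so they do not count as separate results.

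The Egr1 DHS was lower in Ikaros at 12 h by -0.88 ± 0.15 (1.84-fold, adjusted p = 0.00532), at 18 h by -0.69 ± 0.15 (adjusted p = 0.0266) and at 24 h by -0.90 ± 0.15 (adjusted p = 0.00304). The values of -0.52 at 2 h (adjusted p = 0.152) and -0.55 at 6 h (adjusted p = 0.0858) did not pass. No single library ended the 12 or the 24 h call, but dropping all 12 libraries of replicate 5, or of replicate 6, ended both, and the 12 h call was lost also with only the compared groups fitted. Both held with the trends against level, GC content and width removed (-0.61, adjusted p = 0.0281, and -0.71, adjusted p = 0.00487). The 18 h call was lost without any one of the 6 libraries except Control replicate 4. The treated mean fell by 0.73 in Ikaros (SE 0.12, adjusted p = 0.000320), a call that held in 28 of 28 alternatives, and differed from 0 h by 0.43 ± 0.12 in Control (adjusted p = 0.0744). The lines differed in this change by -1.17 ± 0.17 (adjusted p = 0.000490). With the trends removed that value was -0.47 (adjusted p = 0.0654). The time course also passed as a whole in Ikaros (adjusted p = 0.00570, lost without Ikaros 0 h replicate 4), where 2.29% of all DHS did, and as an interaction of line and time (adjusted p = 0.0130). In Control no member passed the test of change over time, against 0.148% of all DHS, and at 10 of 43 the unadjusted p was under 0.05. Before treatment the same DHS was higher in Ikaros by 0.46 ± 0.15 (adjusted p = 0.0460). This call was lost with the replicate block (adjusted p = 0.0523) and without Control 0 h replicate 5 or 6 or Ikaros 0 h replicate 4 or 6, and the difference was -0.11 once the trends were removed.

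**Figure D3:**
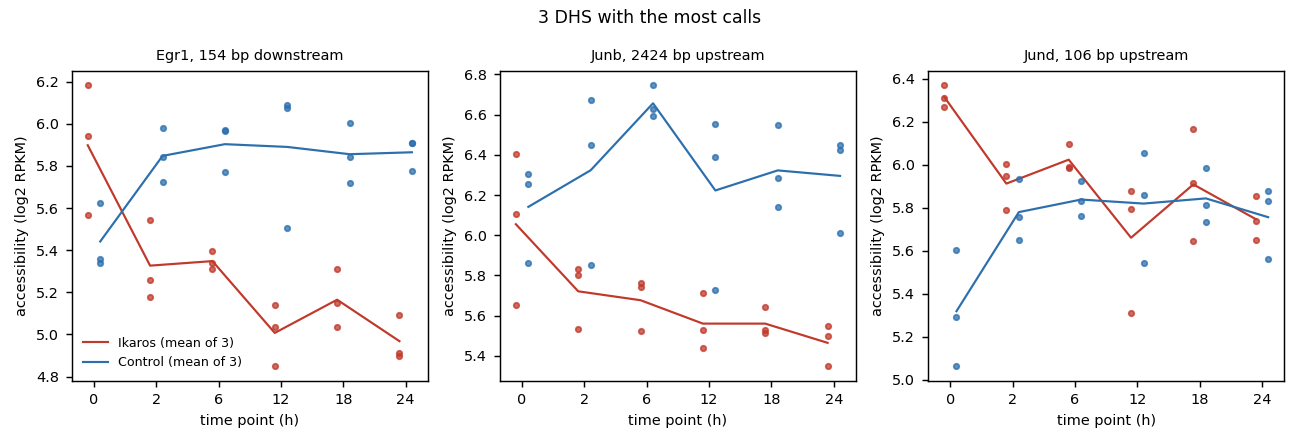
Accessibility (log2 RPKM) by time point of the DHS that passed in most comparisons, 1 point per library with lines through the means of 3 (Ikaros red, Control blue); the vertical scales differ. Egr1 and the Junb upstream DHS are lower in Ikaros at all 5 treated times, whereas the lines at the Jund DHS lie apart at 0 h, by 1.00, and close together from 2 h.

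The second Egr1 promoter DHS, 122 bp upstream of the downstream start (34860782 to 34861388), stood at 5.29, 5.59 and 5.58 in Ikaros and 5.10, 4.94 and 4.59 in Control at 0 h. The groups did not overlap and differed by 0.61 ± 0.20 (adjusted p = 0.0432, and 0.0545 with the replicate block). This call was lost without Control 0 h replicate 5 or 6 or Ikaros 0 h replicate 5 or 6. Its change from 0 h differed between the lines by -0.85 ± 0.22 (adjusted p = 0.0133), lost without Control 0 h replicate 6. It passed at no later time. The 3 DHS farther upstream, at 3396, 5169 and 9520 bp, passed in no comparison.

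Egr2 and Egr3 are relatives of Egr1, and Egr2 is known for its part in lymphocyte development. The Egr2 promoter DHS (chromosome 10, 67537183 to 67538061), 878 bp wide and with the 2 CArG boxes shown above, stood at 5.32, 5.42 and 5.31 in Ikaros and 5.18, 4.74 and 4.41 in Control at 0 h. It was higher in Ikaros by 0.57 ± 0.17 (adjusted p = 0.0294), lost when any single 0 h library except Control replicate 4 was left out. Its treated libraries ran from 4.75 to 5.37 in Ikaros and from 4.71 to 5.35 in Control. The change from 0 h differed by -0.57 ± 0.19 (adjusted p = 0.0441, and 0.0557 with the replicate block), a call that 20 of 36 single libraries could end. At the Egr3 DHS 2258 bp upstream of the start (chromosome 14, 70074671 to 70075218), which holds both an Egr site and a CArG box in its window, the 0 h libraries stood at 5.80, 5.77 and 5.38 in Ikaros and 5.06, 5.09 and 4.83 in Control. The difference of 0.66 ± 0.17 (adjusted p = 0.0107) was lost without Control 0 h replicate 6 or Ikaros 0 h replicate 4. The other Egr3 DHS did not pass in any comparison.

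Ier2, a nuclear protein of the early response, had the highest mean of the 43 DHS at its start (chromosome 8, 84662807 to 84662978), where the CRE lies. This DHS stood at 6.67, 6.23 and 6.20 in Ikaros and 6.41, 6.04 and 6.02 in Control at 0 h, with overlap. Treated libraries ran from 5.88 through 6.16 to 6.30 in Ikaros and from 6.08 through 6.56 to 6.85 in Control. Only its change from 0 h differed between the lines, by -0.60 ± 0.20 (adjusted p = 0.0440, and 0.0536 with the replicate block), and 21 of 36 single libraries could end that call. The DHS 1230 bp upstream, which is also the promoter of Gm26664, stood at 5.73, 6.17 and 6.26 in Ikaros and 5.84, 5.45 and 5.23 in Control at 0 h, with overlap. It was higher in Ikaros by 0.55 ± 0.18 (adjusted p = 0.0402, and 0.0507 with the replicate block), lost without Control or Ikaros 0 h replicate 5 or 6. Its change from 0 h differed between the lines by -0.81 ± 0.20 (adjusted p = 0.00886), lost without Control 0 h replicate 6.

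Dusp1, the phosphatase that ends MAP kinase signals, had its leading promoter DHS 88 bp upstream of its nearest start (chromosome 17, 26508345 to 26508869). Its 0 h libraries stood at 5.38, 5.07 and 5.27 in Ikaros and 4.74, 4.92 and 4.88 in Control, without overlap, and the difference of 0.39 ± 0.16 missed the threshold (adjusted p = 0.112). The order was the other way round at 24 h, with 4.86, 4.76 and 4.86 in Ikaros against 5.54, 4.97 and 5.32 in Control (-0.45 ± 0.16, adjusted p = 0.172). The change from 0 h differed between the lines by -0.74 ± 0.18 (adjusted p = 0.00888), and no single library ended this call. Another promoter DHS, 694 bp upstream (26508963 to 26509463), passed in no comparison. Its 0 h libraries overlapped, at 4.71, 4.46 and 4.50 in Ikaros and 4.08, 4.77 and 4.31 in Control. One GENCODE transcript of Dusp1 begins far upstream in Ergic1. The DHS at that start stood at 4.47, 4.25 and 4.25 in Ikaros and 3.20, 3.96 and 3.64 in Control at 0 h, and its difference of 0.73 ± 0.21 (adjusted p = 0.0209) was lost without Control 0 h replicate 4 or 6 or Ikaros 0 h replicate 4. In the long intron of the same transcript, a DHS of 132 bp with low values stood at 2.32, 3.91 and 3.09 in Ikaros at 0 h and between 3.58 and 4.54 afterwards. It rose by 0.84 ± 0.27 (adjusted p = 0.0306), lost without Ikaros 0 h replicate 4 or 6.

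Across the 43 DHS the line difference was positive at 31 and negative at 12 at 0 h, with a range of -0.69 to 1.00, and negative at 26 to 35 of 43 at each time from 2 h. Of all 52788 DHS, 24076 were positive at 0 h, and 23245 to 26159 were negative at each time from 2 h. All 15 promoter DHS were positive at 0 h, as were 10508 of all 13657 promoter DHS. At 0 h 10 DHS passed, all higher in Ikaros and 9 of them promoters: both Jund, both Egr1, 1 each of Fosb, Junb, Egr2 and Ier2, and the DHS of Dusp1 and Ergic1. The tenth was the Egr3 upstream DHS. Of all DHS 12.9% passed and 7.81% were higher, and of all promoter DHS 24.8% were higher. The median of the 15 promoter DHS was 0.55 and that of all promoter DHS 0.34. These became 0.23 and 0.05 with the trends against level, GC content and width removed, when none of the 43 passed. Leaving out single libraries left between 1 and 9 of the 10 calls. The count was 1 without Control 0 h replicate 6, 6 when Control 0 h replicate 5 was left out, 5 for Ikaros 0 h replicate 5, and 4 for Ikaros 0 h replicate 4 or 6.

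At 2 h no member passed by limma, against 0.195% of all DHS, and an unadjusted p under 0.05 was found for 4. One member passed here once Control 2 h replicate 5 was dropped. The 6 and 12 h comparisons gave 1 call each and those of 18 and 24 h 2 each, all lower in Ikaros. Of all DHS 0.578%, 1.31%, 0.699% and 1.33% passed at these times, and 0.155%, 0.428%, 0.199% and 0.517% were lower. Without Control 12 h replicate 4 the 12 h count was 2. The 18 h count was 1 without Control 18 h replicate 4 and 0 without any one of the other 5 libraries compared. The median of the 15 promoter DHS over the times from 2 to 24 h was, in order, -0.10, -0.11, -0.33, -0.26 and -0.26, and that of all promoter DHS -0.02, 0.08, -0.11, -0.03 and -0.05.

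**Figure D4:**
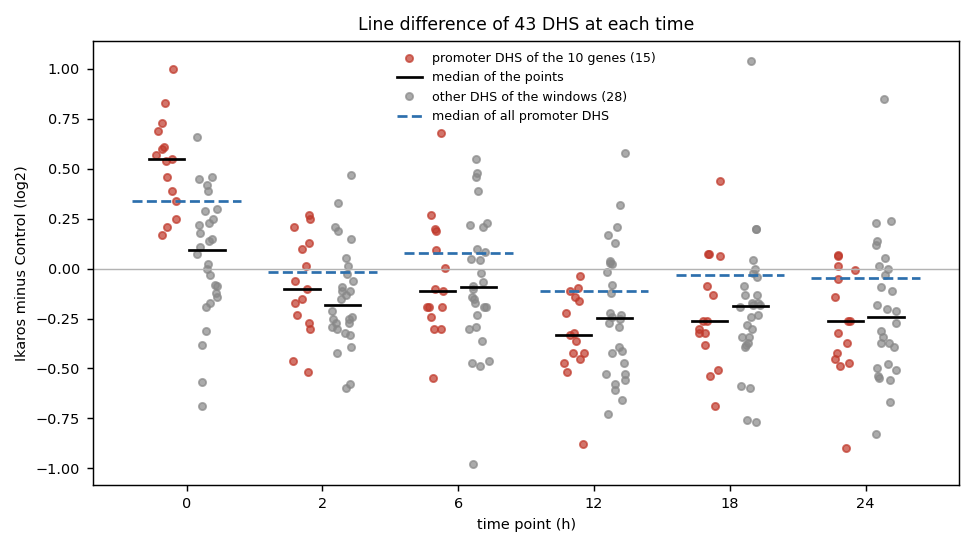
Ikaros minus Control (log2) at each time point for the 15 promoter DHS of the 10 genes (red) and the other 28 DHS (grey), with black bars at their medians and a dashed line at the median of all 13657 promoter DHS. The red medians are 0.55 at 0 h and between -0.10 and -0.33 from 2 h.

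The comparison of 2 h with 0 h, the earliest after the drug, gave no call among the 43 DHS. From 0 to 2 h no member passed in Ikaros, where 0% of all DHS did, or in Control, where 0.301% did. The unadjusted limma p was under 0.05 at 4 and 7 of 43. From 2 to 24 h no member passed in Ikaros (0% of all DHS) or in Control (0.00947%), with 1 and 2 of 43 at an unadjusted p under 0.05. All 15 promoter DHS lay below 0 h at 2 h in Ikaros, by a median of -0.27, and 14 of 15 above it in Control, by a median of 0.33, against -0.17 and 0.20 for all promoter DHS. Of all 13657 promoter DHS, 10117 lay below 0 h in Ikaros and 9998 above it in Control. Times between 0 and 2 h were not analysed here.

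Other genes of the same response were counted through their promoter DHS, and 72 genes in 5 lists were looked up. Their counts are to be read against the shares of all promoter DHS, of which 24.8% were higher in Ikaros at 0 h, 16.4% fell in Ikaros and 23.7% had a lower change in Ikaros than in Control. Of AP-1 partners, 2 of 10 DHS were higher in Ikaros at 0 h (Fosl2 by 0.73, adjusted p = 0.000836, and Mafk by 0.83, adjusted p = 0.0116). The change from 0 h was lower in Ikaros than in Control at 3 of 10, with a median of -0.62. Fosl2, an AP-1 subunit related to Fos, was the only AP-1 partner whose promoter passed in Control, where it rose by 0.48 (adjusted p = 0.0360); 9 of the 10 DHS lay above 0 h, with a median of 0.41. Fosl2 also passed from 0 to 2 h in Control, where it rose by 0.65 (adjusted p = 0.0273). Of the other immediate early genes, 8 of 28 DHS (28.6%) were higher in Ikaros at 0 h, and 13 of 28 (46.4%) had the lower change (median -0.62). Klf10, a zinc finger factor induced by TGF beta, fell in Ikaros by 0.79 (adjusted p = 0.000921), and Tnfaip3, an inhibitor of NF-kappa B, by 0.65 (adjusted p = 0.00437). Mcl1, which protects against apoptosis, rose at 1 DHS in Control by 0.79 (adjusted p = 0.0490).

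Among upstream kinases and factors, 13 of 28 DHS (46.4%) were higher in Ikaros at 0 h, and 10 (35.7%) fell in Ikaros, such as Map2k1, a MAP kinase kinase, by 0.46 (adjusted p = 0.0101). The feedback inhibitors had 8 of 19 (42.1%) higher at 0 h and 9 (47.4%) that fell in Ikaros, among them Zfp36l2, an RNA decay factor, by 0.77 (adjusted p = 0.00352), and Dusp5, a MAP kinase phosphatase, by 0.33 (adjusted p = 0.0491). Stress and heat shock genes had 6 of 9 (66.7%) higher at 0 h and 2 (22.2%) that fell, Hspa1b by 0.68 (adjusted p = 0.00745) and Dnajb1 by 0.49 (adjusted p = 0.00718). None of these 3 lists had a DHS that passed in Control. In the lists of genes no DHS passed at 2, 6, 12, 18 or 24 h between the lines, whereas 0.835% or fewer of all promoter DHS did at each time. B lineage markers had 0 of 9 DHS at 0 h and 2 of 9 that fell in Ikaros (Pax5 by 0.53 and Igll1 by 0.47). For the change from 0 h the medians of the 5 gene lists lay between -0.62 and -0.87, against -0.38 for all promoter DHS. The lists had a median GC content of 62.3% to 66.3% and a median level of 4.59 to 5.71. For all promoter DHS these were 59.1% and 4.57. With the trends against level, GC content and width removed, the median of the 15 member promoter DHS went from -0.71 to -0.18. No such values are given for the lists, and the part of these trends in their counts was not tested.

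The promoter DHS outside these windows whose 12 group means were most like the mean of the 9 leading promoters were those of 3110045C21Rik and Hsd17b7 (Pearson r = 0.997 across the 12 groups), Epb41 and Gm10300 (0.994) and Dexi (0.992). The median over the 13636 promoter DHS compared was 0.374. These are descriptions: the 12 means share the authors' noise correction and span 6 dimensions.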

How the data were processed

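DNase-seq was measured in 36 libraries of B3 cells, 18 per line. Per the study's methods, reads were aligned to mm10 with Bowtie2 and peaks were called with HOMER; the processing notes list Bowtie, HOMER and bedtools, with versions not given in the sources used here. The deposited values are log2 RPKM per DHS, which the authors scaled by TMM and then corrected with ARSyN, a method that removes structured noise with the design in view; the group means span 6 dimensions and the residuals 23, so the spread between libraries, and each p-value, is that of corrected values. The base of the logarithm is not stated. Summed over DHS, base 2 gives 369486 to 432754 RPM in a library and base e at least 1575615, more than the RPM scale allows, so base 2 was used. Depth is unknown, and no counting intervals were given.

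Each DHS was annotated with GENCODE vM21 (mm10) and promoter DHS came within 1000 bp of a gene start; the sources used here do not say whether starts count from 0 or 1, so each is known to 1 bp. Sequences are from GRCm38. The tests were those of limma 3.58.1 under R 4.3.3 (12 group means, an intensity trend, Benjamini-Hochberg over 52788 DHS, 0.05) in 16 comparisons, and tables were made with Python 3.11.15 and pandas 2.3.3. On simulated data for the 24 h line difference, 175 of 200 changed DHS were recovered, with 9 false calls. The simulated shift was larger than any member difference reported here, and its noise was normal and independent between libraries. These counts therefore check the code and do not give the power or the false calls for the real values. The member genes and lists were chosen with earlier results of these data known. Named were the promoter DHS of each gene, led by the highest mean, every member DHS past the threshold, and the 3 promoter DHS outside the windows most like the mean of the leading ones; examples from the other lists were chosen after their values were seen. Same-numbered libraries share a batch in the labels; of 198 same-numbered pairs of libraries, 24 had residuals correlated over 0.1 (range -0.328 to 0.342). Alternatives were a replicate block, no trend, quantile normalization, fits of the compared groups only, a spread per group, the least accessible DHS left out, removal of trends against level, GC content and width, windows of 5000 bp, promoter DHS only and left-out libraries.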

Additional observations from a re-analysis of the deposited data

Results flagged for a closer look

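The change from 0 h to the mean of the treated times differed between the lines, by limma's test of that difference, at 14 DHS. In Ikaros minus Control (log2), the values were -1.17 at Egr1 154 bp downstream of its start, -0.85 at Egr1 122 bp upstream, -0.96 and -0.71 at Jund 106 and 482 bp upstream, and -0.88, -0.91 and -0.68 at Junb 77, 1304 and 2424 bp upstream. They were -0.81 and -0.60 at Ier2 1230 and 40 bp upstream, -0.74 at Dusp1, -0.73 at Fos, -0.69 at Fosb 938 bp downstream, -0.65 at Jun 1126 bp upstream and -0.57 at Egr2. The interaction of line and time also passed at Egr1 (adjusted p = 0.0130 by limma) and at Jund (adjusted p = 0.0362). No test for a library far from the others was run within the groups of 3.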

How the results depend on the processing

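The number of member DHS called depended on the processing. At 0 h the 10 calls became 6 with no intensity trend, 3 with quantile normalization, 0 with only the compared groups, 1 with a spread per group and 0 with the trends removed. With these trends removed the 6 h count was 2, the 18 h count 1, the treated minus 0 h count 3 in Ikaros and 0 for the difference between the lines, and the counts for change over time in Ikaros and for the interaction were 0. Quantile normalization gave 0 at 18 h, 2 for Ikaros treated minus 0 h, 3 for the difference, 2 for change over time in Ikaros and 1 for the interaction. The 2 treated minus 0 h calls were Egr1 154 bp downstream, which fell, and the Prdx2 exon DHS beside Junb, which rose. The 3 calls for the difference were Egr1 154 bp downstream and Jund 106 bp upstream, both lower in Ikaros, and that Prdx2 DHS. The Prdx2 DHS had a higher change in Ikaros (1.03, limma adjusted p = 0.0333), a call absent from the main fit. Only the compared groups gave 0 at 12 and 18 h, 18 for Ikaros treated minus 0 h and 2 for change over time in Ikaros. A spread per group gave 2 at 12 h, 3 at 18 h, 3 at 24 h, 1 for Ikaros treated minus 0 h, 5 for the difference and 0 for the interaction. No intensity trend gave 5 for Ikaros treated minus 0 h, 9 for the difference and 1 for the interaction. Leaving out the least accessible DHS gave 1 at 18 h and 1 in Control, windows of 5000 bp gave 1 at 18 h, and promoter DHS alone gave 0 at 6 h, 1 at 18 h, 1 at 24 h and 3 for Ikaros treated minus 0 h. Apart from these smaller sets of DHS or libraries, the cause was not tested. With the replicate block, 1 DHS passed at 18 h and 1 for the interaction, 7 at 0 h and 12 for the difference; the block ended 7 calls, each given in the report, and changed no other call of a member.

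Leaving out libraries gave 1 to 9 calls at 0 h, 0 to 1 at 2, 6 and 18 h, 0 to 2 at 12 and 24 h, 2 to 6 for Ikaros treated minus 0 h, 0 to 7 for Control, 1 to 17 for the difference, 0 to 1 for change over time in either line and 0 to 3 for the interaction; from 0 to 2 h and from 2 to 24 h it gave 0. With the trends removed, 4 values turned sign: at 0 h -0.17 and -0.11 at the Egr1 DHS 122 bp upstream and 154 bp downstream and -0.07 at Egr3, and 0.05 for the difference at Jund 482 bp upstream. Without recorded depth, a low value cannot be given a counting error.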
